A study of Arabidopsis thaliana with 21 samples.

Results

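The first step of germination, from the mature dry seed to the seed imbibed for 6 h, was followed on expression arrays of Arabidopsis thaliana, cultivar Col-0. The comparison took 6 of the 21 arrays of the series, 3 labelled dry seed (DS) and 3 labelled 6 h imbibition (6H), and all 27789 loci that had a probe set of their own. The other 15 arrays belonged to 5 later stages, from rupture of the testa (TR) onward, and are used here only to share the estimate of the spread and, for TR, to give the level a gene reached next. All seeds were of the same cultivar, and no mutant or added compound is named. Per the labels' protocol, seeds were stratified for 72 h at 4 °C and then kept at 22 °C in continuous white light. About 3000 seeds were selected per stage, each replicate was a separate pool of seeds from 3 to 4 plants, and 50 ng of RNA was labelled. What the 6 h counts from is not stated, so cold, light and water uptake cannot be told apart in this step.

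A dry seed holds messenger RNA that was made while it matured on the mother plant, together with storage protein, oil and the proteins of desiccation tolerance. When it takes up water, respiration and protein synthesis resume before the embryo grows, and transcripts of the maturation programme are degraded while others are newly made. Gibberellin promotes this transition and abscisic acid opposes it.

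Each value below is on the log2 scale, on which a difference of 1 is a 2-fold difference of signal. A change is the mean at 6H minus the mean at DS ± its standard error (SE) from limma, with n = 3 arrays per stage. That SE draws on the spread at all stages and can differ from the spread on these 6 arrays. A locus is said to have risen or fallen where the Benjamini-Hochberg adjusted p over all loci was under 0.05 and the change was at least 1. To pass means to meet both thresholds, so a change that did not pass can have an adjusted p under 0.05. The signal floor was set at 3.47, below which 30% of all values lie. A change that starts or ends under the floor is a lower bound. Of the genes described below this applies to the rises of NDB3, AOX1A, CYP94C1, CAF1a, TUB5, PIP2;8, NAC3, bZIP44, bZIP52, GSTU27, GSTU8, GA3OX1 and GA3OX2. It applies likewise to the falls of LTI78, AOC2, PEI1, PGA4, VGD1, PME2 and eIF6B. Levels compare the same locus between stages and do not rank different genes, since each probe set has its own response. The whole seed was sampled, so fewer cells of a type and less RNA per cell cannot be told apart.

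One array stood apart before any comparison. Across loci, DS replicate 2 had a Pearson correlation of 0.981 with DS replicate 1 and 0.983 with DS replicate 3, against 0.991 between those 2. Pairs of 6H arrays lay between 0.991 and 0.994, and pairs of 1 DS and 1 6H array between 0.861 and 0.895, where loci are not independent replicates. On DS replicate 2, 22.2% of loci were under the floor, against 32.4% and 27.3% on the other DS arrays, and limma's array weights gave it 0.32, the lowest of the 6. Median levels were 4.74 to 4.83 on the DS arrays and 5.04 to 5.21 on the 6H arrays.

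From DS to 6H, 4070 loci rose (14.6% of those tested) and 2965 fell (10.7%), so that 25.3% changed at least 2-fold. Without DS replicate 2, 3987 rose and 3017 fell. Which direction prevailed depended on the scale and on the threshold. The median change of all loci was -0.23 as deposited, -0.03 after a further quantile normalization and -0.60 after the arrays were centred on their medians. On median-centred arrays 2457 loci rose and 6159 fell, and after the further quantile normalization 3594 rose and 3121 fell. So the rises outnumbered the falls on the deposited and requantiled scales and not on median-centred arrays. With no minimum change, at an adjusted p under 0.05 alone, 8220 were counted as genes that rose from DS to 6H and 11120 as genes that fell from DS to 6H on the deposited scale. All 2457 of the median-centred rises and all 2965 of the deposited-scale falls were called on both the deposited and the median-centred scale. Median-centring lowers every change alike, so this overlap was largely fixed in advance. After the further quantile normalization, 3307 of the 4070 rises and 2891 of the 2965 falls were still called. For part of the lists the median is therefore given below relative to the median of all loci as well. Median-centring cannot change that measure, while the further quantile normalization can.

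Changes were often large and well separated. At least 4-fold, 1030 loci rose and 822 fell, and at a change of at least 4 on the log2 scale 75 rose and 66 fell. The 3 arrays of one stage lay beyond the 3 of the other in 4060 of the rises and 2955 of the falls, and in 19614 of all loci (70.6%). A DS mean under the floor underlay 430 of the rises (10.6%), and 709 of the falls (23.9%) ended under the floor at 6H. In the plot of mean levels the falls therefore reach the lower edge more often than the rises start from it.

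**Figure D1:**
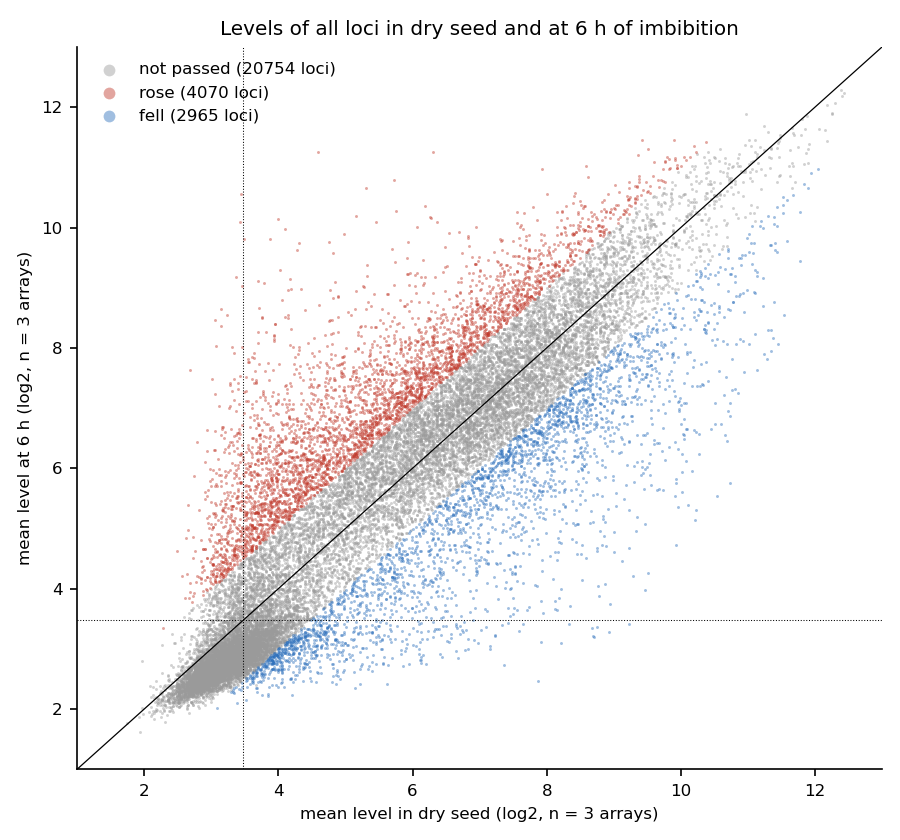
Mean level of each of the 27789 loci in dry seed (x axis, log2, 3 arrays) and at 6 h of imbibition (y axis, log2, 3 arrays), with the line of equal levels and dotted lines at the floor of 3.47. The 4070 loci that rose lie above the line and the 2965 that fell below it, and both groups extend to differences of more than 5.

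The 15 largest rises were taken among loci with both means at or above the floor and no overlap between the arrays of the stages. EXPA10 (AT1G26770), an expansin that loosens cell walls, read 4.56, 4.93 and 4.29 at DS and 11.23, 11.12 and 11.40 at 6H, a rise of 6.66 ± 0.18 (adjusted p = 4.4e-16). Further expansin genes among the 15 largest were EXPA1 (AT1G69530) at 5.87 ± 0.19, EXPA9 (AT5G02260) at 5.44 ± 0.12 and EXPA2 (AT5G05290) at 5.34 ± 0.35. PME3 (AT3G14310), a pectin methylesterase, read 5.24, 5.46 and 4.74 at DS and 10.35, 10.18 and 10.04 at 6H, a rise of 5.04 ± 0.13. The 2 stages lay far apart on all arrays for these genes. LAC8 (AT5G01040), a laccase, rose by 5.29 ± 0.24 and the serine carboxypeptidase-like gene scpl20 (AT4G12910) by 6.14 ± 0.36, and scpl44 (AT1G43780) by 5.93 ± 0.43. The cysteine proteinase gene CP1 (AT4G36880) rose by 5.06 ± 0.27.

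For some of these genes DS replicate 2 sat well above the other dry seed arrays. It read 5.42 for scpl20 (AT4G12910) against 3.23 and 3.35, and 5.54 for scpl44 (AT1G43780) against 2.96 and 3.13. Without it these rises were at least 6.85 and 6.77, from DS means then under the floor, and more than 1.5 times larger as folds. EXPA2 read 6.34 on that array against 5.16 and 4.44, and CP1 read 6.79 against 5.33 and 5.07. The whole group of 6H arrays lay above it for each of these genes, which their choice among loci without overlap required.

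The lectin receptor kinase gene HLECRK (AT3G59700) rose by 5.42 ± 0.16, and ABCG37 (AT3G53480), an ABC transporter of the pleiotropic drug resistance type, by 4.97 ± 0.14. MT1B (AT5G56795), a metallothionein, read 4.47, 5.09 and 4.71 at DS and 9.89, 9.63 and 9.75 at 6H, a rise of 5.0 ± 0.15. Its mean at testa rupture was 6.42, so the 6H level was well above both neighbouring stages. NTL8 (AT2G27300), a membrane-bound NAC transcription factor, went from 3.94, 4.12 and 4.04 to 9.32, 9.35 and 9.23, a rise of 5.27 ± 0.18, and averaged 6.81 at TR. The loci AT1G28660 (6.32 ± 0.25) and AT1G53542 (5.36 ± 0.13), which have no symbol in the reference table, complete the 15.

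**Figure D2:**
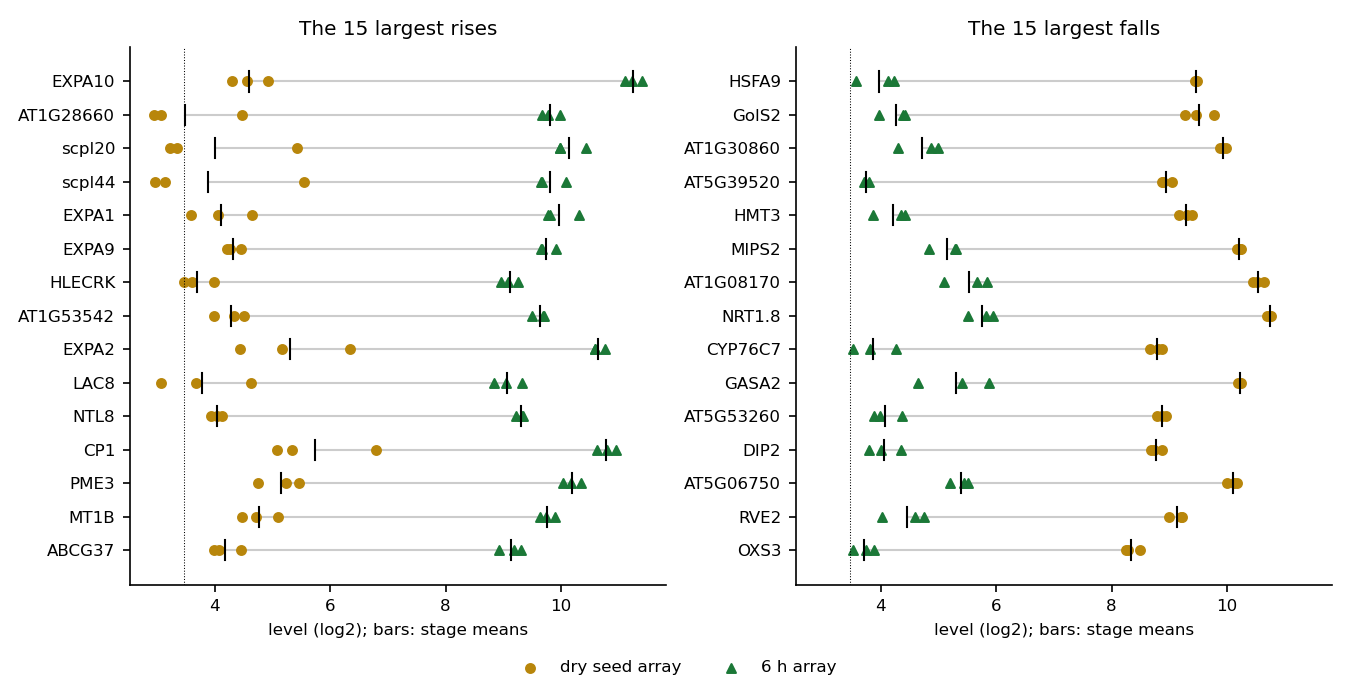
Level (x axis, log2) of the 15 largest rises (left) and the 15 largest falls (right) on each of the 3 dry seed arrays (circles) and 3 arrays at 6 h (triangles), with black bars at the stage means and a dotted line at the floor of 3.47. Circles and triangles do not overlap for any of the 30 loci, since only loci without overlap were eligible. The dry seed circles spread widely for scpl20, scpl44 and EXPA2, where replicate 2 is the highest.

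The 15 largest falls were taken in the same way. HSFA9 (AT5G54070), a heat shock factor of maturing seeds, read 9.46, 9.49 and 9.45 at DS and 3.57, 4.12 and 4.23 at 6H, a fall of 5.49 ± 0.20 on the log2 scale (change -5.49, adjusted p = 2.3e-14). GolS2 (AT1G56600), a galactinol synthase that feeds the synthesis of raffinose sugars, went from 9.47, 9.28 and 9.77 to 3.97, 4.39 and 4.42, and MIPS2 (AT2G22240), which makes the inositol phosphate upstream of galactinol, changed by -5.07 ± 0.20. The dry seed values of these genes lay close together, and the 6H values were all far below them. HMT3 (AT3G22740), a homocysteine methyltransferase of methionine synthesis, changed by -5.08 ± 0.17, and NRT1.8 (AT4G21680), a nitrate transporter, by -4.98 ± 0.22. GASA2 (AT4G09610), of a family of gibberellin-regulated peptides, read 10.22, 10.19 and 10.25 at DS and 4.64, 5.4 and 5.88 at 6H, so its 6H arrays spread over more than 1 unit.

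The rest of the 15 were as follows. RVE2 (AT5G37260), a MYB-like factor related to clock proteins, changed by -4.68 ± 0.17 from a mean of 9.13 to 4.46, and averaged 7.07 at TR, so its level at 6H was below both neighbouring stages. AT5G06750, named APD8 among its synonyms, encodes a clade D protein phosphatase 2C and changed by -4.71 ± 0.14. OXS3 (AT5G56550, -4.63 ± 0.18), DIP2 (AT5G03210, -4.71 ± 0.27) and the cytochrome P450 gene CYP76C7 (AT3G61040, -4.91 ± 0.18) also fell. The loci AT1G30860 (-5.22 ± 0.14), AT5G39520 (-5.19 ± 0.15), AT1G08170 (-5.01 ± 0.24) and AT5G53260 (-4.80 ± 0.16) have no symbol in the reference table.

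None of the 9 loci with the highest signal at DS or 6H met both thresholds. Such values lie near the top of the table, at 12.85, where saturation of the signal was not tested, and they do not rank abundance. The 8 highest means at DS were those of M17 (AT2G41260), the cruciferin storage protein genes CRU3 (AT4G28520) and CRA1 (AT5G44120), PAP85 (AT3G22640), AT1G68250 and the mitochondrial loci ATMG01390, ATMG00030 and ATMG00020, from 12.18 to 12.44. At 6H the same set held except that the plastid locus ATCG00100 took the place of PAP85. CRA1 read 12.19, 12.30 and 12.25 at DS and 11.78, 11.78 and 12.08 at 6H, a change of -0.37 ± 0.29. Its groups did not overlap, and its mean at TR was 7.20. ATCG00100 (0.92 ± 0.08, adjusted p = 1.1e-08) and PAP85 (-0.75 ± 0.30, adjusted p = 0.031) were under the p threshold in the limma test but changed by less than 1.

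Genes that the study of dormancy usually turns to were checked next. GA3OX2 (AT1G80340) and GA3OX1 (AT1G15550), the gibberellin 3-oxidase genes of the last step to active gibberellin, started near the floor. GA3OX2 read 3.18, 3.89 and 3.26 at DS and 10.55, 10.52 and 10.59 at 6H, and GA3OX1 2.84, 3.38 and 3.23 at DS and 8.32, 8.59 and 9.00 at 6H. GA3OX1 averaged 6.66 at TR against 10.38 for GA3OX2. DOG1 (AT5G45830), which maintains dormancy, read 8.69, 8.75 and 8.80 at DS and 4.34, 4.65 and 5.03 at 6H, a change of -4.08 ± 0.15. ABI5 (AT2G36270), a bZIP factor of abscisic acid signalling, changed by -1.88 ± 0.19 with no overlap of the groups. CYP707A2 (AT2G29090), which breaks abscisic acid down, read 7.83, 7.73 and 7.73 at DS and 7.27, 7.42 and 7.83 at 6H, so its groups overlapped (-0.25 ± 0.25, adjusted p = 0.36).

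The 25 gene lists with 720 measured members describe the step by function, and their counts stand against the 14.6% of all loci that rose and the 10.7% that fell. These shares varied with signal level. From the lowest to the highest of 5 classes of mean level on the 6 arrays, 0.018%, 3.43%, 30.6%, 22% and 17.1% rose. In the same order 0.682%, 8.62%, 14.3%, 14.1% and 15.7% fell, and median changes were -0.40, -0.46, 0.43, 0.17 and 0.07. Lists were not compared with loci of like level. Both stage means were under the floor for 40 of 104 NAC, 13 of 48 glutathione S-transferase and 11 of 45 bZIP genes. The same held for 10 of 25 pectin, 8 of 26 cytokinin, 5 of 23 cold-response and 5 of 22 sucrose and hexose genes. Changes of such genes say little. Counts on median-centred arrays stand against 2457 rises and 6159 falls among all 27789 loci. Of 34 cytosolic ribosomal protein genes 22 rose and 1 fell, with a median change of 1.11, which lay 1.34 above that of all loci. RPSAb (AT3G04770), a protein of the small subunit, read 5.69, 5.38 and 5.54 at DS and 8.87, 8.53 and 8.52 at 6H, a rise of 3.11 ± 0.15. RPL10B (AT1G26910) rose by 3.04 ± 0.14 and RPL24A (AT2G36620) by 2.1 ± 0.10, while RPL18AA (AT1G29970) changed by -1.26 ± 0.17. The fall of RPL18AA did not pass with its brightest probe set in place of the average (-0.89). On median-centred arrays 9 of the 34 rose, since that scale lowers every change alike. Close paralogs among ribosomal protein genes can share probe signal.

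Plastid ribosomal proteins and factors that serve the ribosome were counted next. Of 22 plastid ribosomal protein genes 10 rose and none fell (median 0.92, 1.15 above all loci), led by RPL12-A (AT3G27830) at 1.7 ± 0.10 and PSRP3/1 (AT1G68590) at 1.57 ± 0.12, and 6 rose on median-centred arrays. Among 28 translation initiation factors 3 rose and 1 fell (median 0.63), a share of rises below that of all loci. EIF3G2 (AT5G06000) stood out among them with 5.23, 4.72 and 4.81 at DS and 7.78, 7.73 and 7.68 at 6H, a rise of 2.81 ± 0.15. EIF4E (AT4G18040), the cap-binding factor, rose by 1.07 ± 0.10, AT1G29550 by 1.12 ± 0.27 and eIF6B (AT2G39820) changed by -1.11 ± 0.21. AT1G29550 did not pass without DS replicate 1 (0.86). On median-centred arrays EIF3G2 was the only one of the 3 rises left, and the fall of eIF6B did not pass without DS replicate 3. Of 10 aminoacyl-tRNA synthetase genes, which charge tRNAs with amino acids, ATKRS-1 (AT3G11710) for lysine rose by 1.85 ± 0.12 and TWN2 (AT1G14610) for valine by 1.3 ± 0.09. The rise of TWN2 did not pass on median-centred arrays (0.93).

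The 26S proteasome, which degrades proteins tagged with ubiquitin, had 16 of 36 subunit genes up and none down. Its median change was 0.88, which was 1.11 above all loci, and its members spanned -0.07 to 2.05. PBC2 (AT1G77440), a subunit of the catalytic ring, read 7.13, 7.11 and 7.21 at DS and 9.12, 9.18 and 9.30 at 6H, a rise of 2.05 ± 0.10. PBD2 (AT4G14800) rose by 2.04 ± 0.10 and PAD1 (AT3G51260) by 1.75 ± 0.13. The highest of the members that did not pass were PBF1 (AT3G60820) at 0.95 ± 0.09 and RPN8A (AT5G05780) at 0.90 ± 0.16. On median-centred arrays 9 subunit genes rose.

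Autophagy, the other route of bulk protein breakdown, had 5 of 23 genes down and 1 up (median -0.68, 0.45 below all loci). ATG8H (AT3G06420), a ubiquitin-like protein of the autophagosome membrane, read 9.84, 10.01 and 9.93 at DS and 5.51, 5.94 and 6.02 at 6H, a change of -4.10 ± 0.14. APG8H (AT3G15580, synonym ATG8I) changed by -1.72 ± 0.14 and AtATG18a (AT3G62770) by -1.66 ± 0.12. In the same ATG8 family, ATG8B (AT4G04620) read 6.34, 6.77 and 6.58 at DS and 7.66, 7.65 and 7.63 at 6H, a rise of 1.08 ± 0.17. That rise did not pass after the further quantile normalization (0.97), on median-centred arrays (0.72) or without DS replicate 1 (0.97), and 12 of the 23 genes fell on median-centred arrays.

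Of 23 genes of mRNA decay and poly(A) binding 6 rose, 4 fell and 13 did not pass (median 0.21). CAF1a (AT3G44260), a deadenylase that shortens poly(A) tails, read 3.08, 3.05 and 3.07 at DS and 6.14, 5.82 and 5.81 at 6H, a rise of 2.85 ± 0.21 from under the floor. RRP4 (AT1G03360) of the exosome rose by 1.93 ± 0.13 and PAB4 (AT2G23350), a poly(A)-binding protein, by 1.45 ± 0.10. The 3 largest falls were those of the tandem zinc finger genes PEI1 (AT5G07500, -1.71 ± 0.16), AT5G44260 (synonym TZF5, -1.37 ± 0.19) and SOM (AT1G03790, -1.29 ± 0.22), whose product represses germination in the dark.

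**Figure D3:**
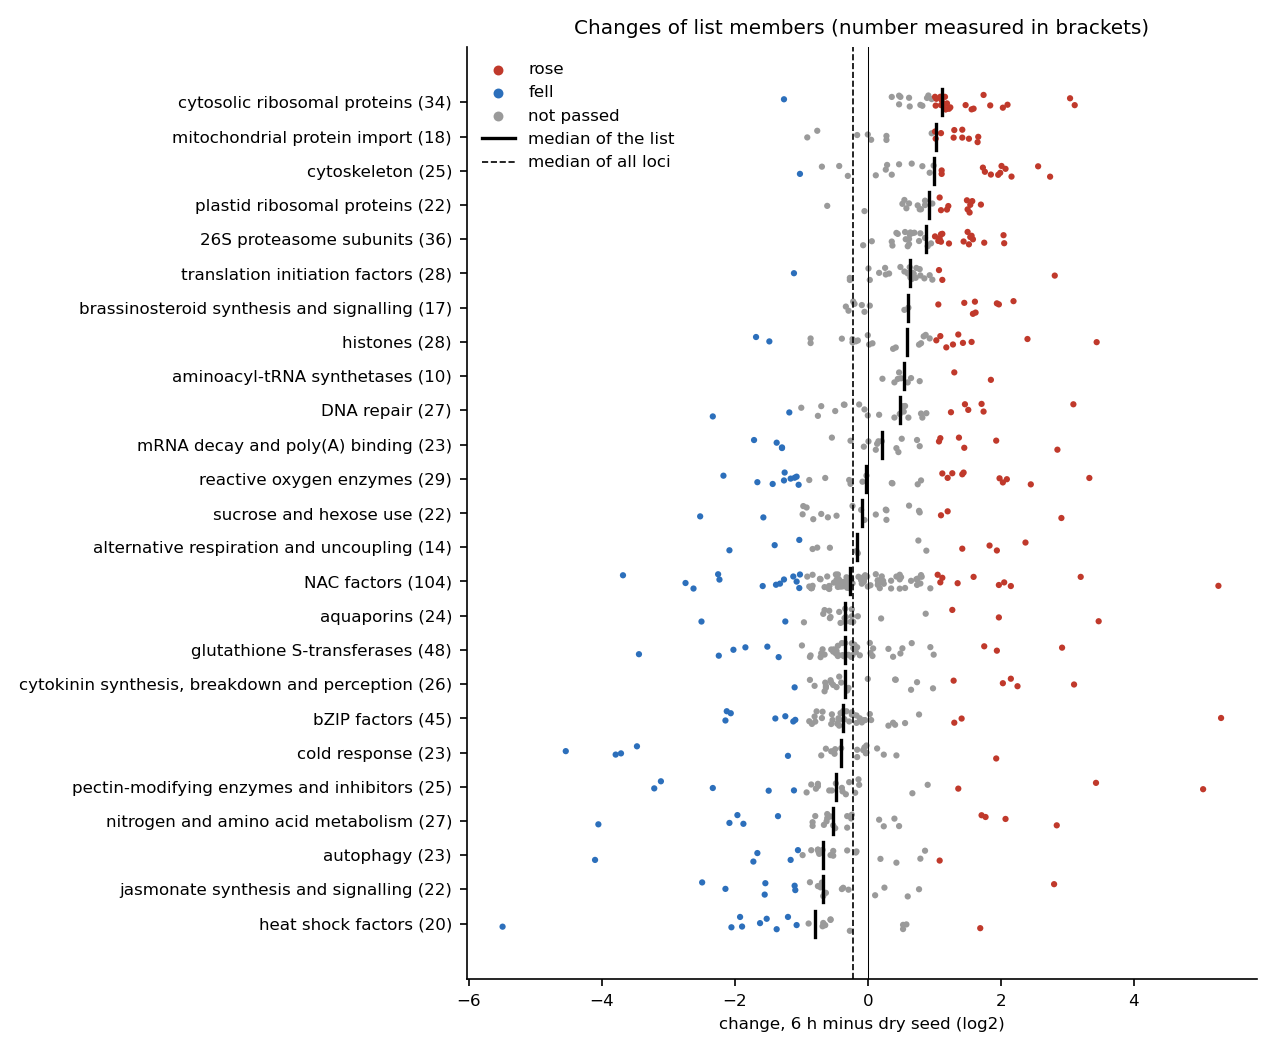
Change from dry seed to 6 h (x axis, log2) of every measured member of the 25 lists, with red points for members that rose, blue for those that fell and grey for those that did not pass. Black bars are list medians, from -0.79 for heat shock factors to 1.11 for cytosolic ribosomal proteins, and the dashed line is the median of all loci at -0.23.

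Most proteins of mitochondria are made in the cytosol and imported. Of 18 genes of this import 10 rose, none fell and 8 did not pass (median 1.02, 1.25 above all loci). The small chaperones that carry precursors across the intermembrane space led, with TIM10 (AT2G29530) at 8.55, 8.26 and 8.37 in dry seed and 10.25, 9.93 and 9.98 at 6H, a rise of 1.66 ± 0.12. TIM9 (AT3G46560) rose by 1.65 ± 0.11 and TIM8 (AT5G50810) by 1.52 ± 0.11. The channel gene TOM40 (AT3G20000), at 0.96 ± 0.11, fell short of the threshold. On median-centred arrays 5 import genes rose and 2 fell, and 1 fell without DS replicate 1.

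Alternative oxidases and NAD(P)H dehydrogenases let electrons bypass the proton-pumping steps of respiration. Of 14 genes of alternative respiration and uncoupling 4 rose and 3 fell, with 5 falls on median-centred arrays. AOX1A (AT3G22370) read 3.02, 3.28 and 3.34 at DS and 4.78, 5.0 and 5.36 at 6H, a rise of 1.83 ± 0.19 from under the floor. Its paralog AOX2 (AT5G64210) read 8.89, 8.80 and 8.84 at DS and 7.13, 7.66 and 7.54 at 6H, a change of -1.40 ± 0.19. The alternative dehydrogenases split too, with NDB3 (AT4G21490) up by 2.37 ± 0.29, on 6H arrays that spread from 4.93 to 6.55, and NDB2 (AT4G05020) at -2.08 ± 0.18. NDA2 (AT2G29990) changed by -1.03 ± 0.18, a call that was lost without DS replicate 3 (-0.88) or 6H replicate 3 (-0.97). PUMP1 (AT3G54110), an uncoupling protein, rose by 1.94 ± 0.09.

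Among loci of the organelle genomes, 32 of 100 mitochondrial loci rose and none fell, with a median change of 0.49. Of 94 plastid loci 5 rose and none fell, with a median of 0.23. On median-centred arrays 13 mitochondrial and 1 plastid loci rose and 3 plastid loci fell, and the plastid median turned to -0.14. The median level of the mitochondrial loci was 8.66, 8.74 and 8.65 at DS and 9.00, 9.08 and 9.44 at 6H, so the stages did not overlap and 6H replicate 3 was the highest. Those of the plastid loci were 10.42, 10.40 and 10.42 at DS and 10.55, 10.42 and 10.86 at 6H, so the plastid stages touched and 6H replicate 3 was again the highest. Organelle RNA mostly lacks long poly(A) tails, and the priming of the labelled RNA is not described here, so its part in these values was not tested.

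Of 29 reactive oxygen enzyme genes 10 rose and 9 fell, and on median-centred arrays 7 rose and 11 fell. The rises included the ascorbate-recycling genes MDAR1 (AT3G52880) and DHAR2 (AT1G75270). MDAR1 read 4.13, 4.85 and 4.61 at DS and 7.93, 7.79 and 7.87 at 6H, a rise of 3.33 ± 0.14, and DHAR2 rose by 2.45 ± 0.16. GPX2 (AT2G31570), of the glutathione peroxidase family, rose by 2.09 ± 0.14. The falls included the catalase gene CAT1 (AT1G20630) at -2.17 ± 0.14, the ascorbate peroxidase gene APX6 (AT4G32320) at -1.43 ± 0.11 and PER1 (AT1G48130), the seed peroxiredoxin, at -1.66 ± 0.31. PER1 read 11.34, 11.45 and 11.41 at DS and 9.26, 9.90 and 10.08 at 6H.

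Of 48 glutathione S-transferase genes, whose products conjugate glutathione to other molecules, 3 rose and 6 fell, and 13 fell on median-centred arrays. GSTU27 (AT3G43800) rose by 2.92 ± 0.14, GSTU20 (AT1G78370) by 1.94 ± 0.14 and GSTU8 (AT3G09270) by 1.75 ± 0.18. GSTU9 (AT5G62480) read 7.32, 7.20 and 7.29 at DS and 3.61, 4.25 and 3.64 at 6H, a change of -3.44 ± 0.16. GSTU4 (AT2G29460) and GSTU28 (AT1G53680) changed by -2.24 ± 0.23 and -2.02 ± 0.26. After the further quantile normalization 5 of the 48 rose.

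Of 27 DNA repair genes 6 rose and 2 fell (median 0.48, 0.71 above all loci), with 5 falls on median-centred arrays. After the further quantile normalization the list median lay only 0.16 above that of all loci. PARP2 (AT4G02390), a poly(ADP-ribose) polymerase that marks DNA breaks, read 3.06, 4.30 and 3.88 at DS and 6.92, 6.80 and 6.77 at 6H, a rise of 3.09 ± 0.20. PARP1 (AT2G31320) rose by 1.46 ± 0.17. The third member, AT5G22470 (synonym PARP3), read 11.73, 11.80 and 11.78 at DS and 9.04, 9.57 and 9.72 at 6H, a change of -2.33 ± 0.19. It averaged 5.15 at TR. UNG (AT3G18630), a uracil-DNA glycosylase, rose by 1.74 ± 0.17, and the photolyase gene PHR1 (AT1G12370) changed by -1.18 ± 0.15.

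Of 28 histone genes 9 rose and 2 fell (median 0.59, 0.82 above all loci), and on median-centred arrays 4 rose and 4 fell. After the further quantile normalization the list median lay 0.50 above that of all loci. AT1G08170, one of the largest falls above (-5.01 ± 0.24), had been meant for this list and is not in its counts, since the gene table does not name it as a histone. HTA8 (AT2G38810), an H2A.Z variant, read 4.56, 5.04 and 4.84 at DS and 8.54, 8.06 and 8.14 at 6H, a rise of 3.44 ± 0.13. GAMMA-H2AX (AT1G54690), the H2A variant phosphorylated at DNA breaks, rose by 2.40 ± 0.14, and HTB4 (AT5G59910) of the H2B family by 1.56 ± 0.11. HTA13 (AT3G20670), another H2A gene, changed by -1.48 ± 0.11 and averaged 8.47 at TR, above its mean of 8.21 in dry seed. HIS1-3 (AT2G18050), a linker histone known to respond to drought, changed by -1.68 ± 0.26 and its 6H arrays spread from 7.28 to 8.44.

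**Figure D4:**
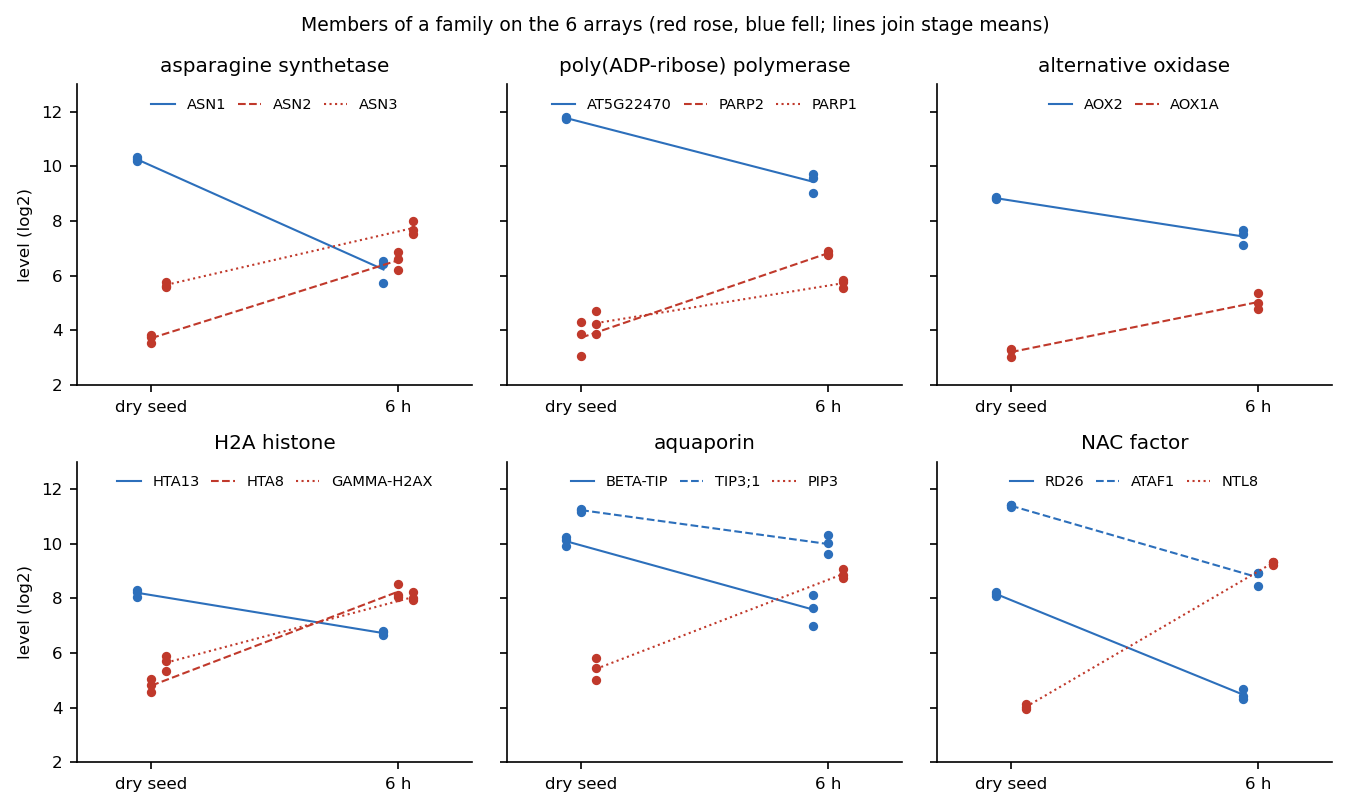
Level (y axis, log2) on the 3 dry seed and 3 6 h arrays of members of 6 gene families, chosen after their values were seen, with lines joining the stage means, red for members that rose and blue for those that fell. In each family at least 1 member rose and at least 1 fell, such as ASN2 at 2.84 against ASN1 at -4.05.

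Asparagine synthetases make an amino acid used for nitrogen transport in this plant. ASN1 (AT3G47340) read 10.20, 10.26 and 10.35 at DS and 5.72, 6.54 and 6.42 at 6H, a change of -4.05 ± 0.22. ASN2 (AT5G65010) read 3.78, 3.82 and 3.56 at DS and 6.88, 6.6 and 6.21 at 6H, a rise of 2.84 ± 0.16, and ASN3 (AT5G10240) rose by 2.07 ± 0.12. The groups of all 3 genes stood apart, and the plot of family members shows the lines crossing. Over the 27 genes of nitrogen and amino acid metabolism 4 rose and 5 fell (9 on median-centred arrays), among them the nitrate transporter gene NRT1.1 (AT1G12110, 1.77 ± 0.16), the proline dehydrogenase gene ERD5 (AT3G30775, -2.08 ± 0.11) and the glutamine synthetase gene GLN1;5 (AT1G48470, -1.96 ± 0.20).

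Of 22 genes of sucrose and hexose use 3 rose and 2 fell. SUC1 (AT1G71880), a sucrose carrier, read 3.89, 5.36 and 3.78 at DS and 7.65, 7.23 and 6.86 at 6H, a rise of 2.91 ± 0.27, with DS replicate 2 again the highest. SUS3 (AT4G02280), a sucrose synthase, read 10.66, 10.55 and 10.67 at DS and 7.75, 8.34 and 8.23 at 6H, a change of -2.52 ± 0.19. The hexose transporter gene MSS1 (AT5G26340) changed by -1.57 ± 0.17. The rises of SUC2 (AT1G22710, 1.2 ± 0.16) and the invertase gene ATBFRUCT1 (AT3G13790, 1.1 ± 0.16) did not pass on median-centred arrays (0.84 and 0.73) or after the further quantile normalization (0.83 and 0.66). SUC2 also did not pass without 6H replicate 1 (0.99), nor ATBFRUCT1 without DS replicate 1 (0.88) or 6H replicate 2 (0.97). On median-centred arrays 7 genes of the list fell, and 4 fell without DS replicate 1.

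Cell growth needs a cytoskeleton, water channels and a loosened wall. Of 25 tubulin, actin and related genes 12 rose and 1 fell (median 0.99, 1.23 above all loci). TUB5 (AT1G20010), a beta-tubulin, read 2.94, 3.49 and 2.97 at DS and 6.71, 5.82 and 5.10 at 6H, a rise of 2.74 ± 0.25. The alpha-tubulin genes TUA6 (AT4G14960) and TUA4 (AT1G04820) rose by 2.56 ± 0.22 and 2.16 ± 0.25, and for TUA4 DS replicate 2 read 7.06 against 5.82 and 5.67. TUA1 (AT1G64740) changed by -1.02 ± 0.15, which did not pass without DS replicate 2 (-0.87), without 6H replicate 1 (-0.94) or with array weights (-0.83).

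Among 24 aquaporin genes, which encode water channels, 3 of the plasma membrane type rose and 2 of the seed storage vacuole type fell. PIP3 (AT4G35100) read 5.0, 5.81 and 5.44 at DS and 9.06, 8.86 and 8.76 at 6H, a rise of 3.47 ± 0.15. PIP2;8 (AT2G16850) rose by 1.97 ± 0.21 from under the floor and PIP1C (AT1G01620) by 1.27 ± 0.14, and the latter did not pass on median-centred arrays (0.90) or after the further quantile normalization (0.83). BETA-TIP (AT1G17810) read 9.91, 10.23 and 10.14 at DS and 7.0, 7.66 and 8.11 at 6H, a change of -2.50 ± 0.31, and TIP3;1 (AT1G73190) changed by -1.24 ± 0.27. At TR both tonoplast genes were far lower, with means of 2.84 and 4.13. On median-centred arrays 5 aquaporin genes fell.

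Pectin, the gel of the primary wall, is modified by methylesterases and polygalacturonases. Of 25 genes of these enzymes and their inhibitors 3 rose and 5 fell, while 5 rose without DS replicate 2 and 10 fell on median-centred arrays. Beside PME3, PME44 (AT4G33220) read 3.41, 3.93 and 3.12 at DS and 7.17, 6.98 and 6.6 at 6H, a rise of 3.43 ± 0.17, and PG2 (AT1G70370) rose by 1.36 ± 0.21. VGD1 (AT2G47040), a pectin methylesterase known from pollen tubes, read 6.27, 5.68 and 6.36 at DS and 3.08, 2.91 and 2.99 at 6H, a change of -3.11 ± 0.16. PGA4 (AT1G02790), a polygalacturonase known from pollen, changed by -3.21 ± 0.18, and PME2 (AT1G53830) by -2.33 ± 0.24. All 3 ended under the floor, and for each of them DS replicate 2 was the lowest dry seed array.

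Of 17 genes of brassinosteroid synthesis and signalling 8 rose and none fell (median 0.61, 0.84 above all loci), with 7 rises on median-centred arrays. DWF4 (AT3G50660), a rate-limiting hydroxylase of the pathway, read 4.64, 4.14 and 4.49 at DS and 6.81, 6.57 and 6.46 at 6H, a rise of 2.19 ± 0.17. BR6OX2 (AT3G30180), of the last oxidation steps, rose by 1.97 ± 0.17 and DWF1 (AT3G19820) by 1.94 ± 0.13. The median of the list was 0.19 after the further quantile normalization, only 0.23 above that of all loci.

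Cytokinin genes had 5 rises and 1 fall among 26 (median -0.35, 0.12 below all loci), with 2 falls without DS replicate 2 or after the further quantile normalization and 5 on median-centred arrays. The rises took in breakdown, activation and relay of the hormone. CKX5 (AT1G75450), a cytokinin oxidase that degrades it, read 4.29, 3.94 and 3.68 at DS and 7.22, 7.11 and 6.88 at 6H, a rise of 3.1 ± 0.16, and averaged 5.02 at TR. LOG8 (AT5G11950), which releases active cytokinin, rose by 2.25 ± 0.11 and the phosphotransfer gene AHP2 (AT3G29350) by 2.15 ± 0.21. The response regulator gene RR1 (AT3G16857) changed by -1.1 ± 0.10.

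Of 22 jasmonate genes 6 fell, 1 rose and 15 did not pass (median -0.68, 0.45 below all loci), and 13 fell on median-centred arrays. AOS (AT5G42650), the allene oxide synthase, read 7.0, 6.77 and 6.74 at DS and 4.59, 4.81 and 4.68 at 6H, a change of -2.14 ± 0.17. The allene oxide cyclase genes AOC3 (AT3G25780) and AOC2 (AT3G25770) changed by -2.49 ± 0.13 and -1.55 ± 0.24, while AOC4 (AT1G13280) stood at 0.77 ± 0.11 and did not pass. The single rise was that of CYP94C1 (AT2G27690), which inactivates the hormone by oxidation, with 3.36, 3.50 and 3.46 at DS and 6.37, 6.22 and 6.11 at 6H (2.80 ± 0.22). At TR, AOC3 and AOS averaged 6.08 and 5.66, above their levels at 6H.

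Among transcription factors, the heat shock factors had the lowest median of the 25 lists, -0.79, which was 0.56 below all loci. In all, 9 of 20 fell and 1 rose. Beside HSFA9, HSFC1 (AT3G24520) read 8.67, 8.46 and 8.53 at DS and 6.52, 6.52 and 6.48 at 6H, a change of -2.05 ± 0.13, and HSFA1E (AT3G02990) changed by -1.92 ± 0.16. HSFB4 (AT1G46264), known from root stem cell divisions, rose from 4.92, 4.91 and 4.88 to 6.64, 6.59 and 6.56 (1.69 ± 0.12).

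The NAC family, plant transcription factors of stress and development, had 10 rises and 13 falls among 104 measured genes. On median-centred arrays 6 rose and 24 fell, where 2457 and 6159 of all 27789 loci did. The median of the family was -0.27 as deposited (0.04 below all loci) and 0.07 after the further quantile normalization (0.10 above). Both stage means were under the floor for 40 of the 104 genes, and the family's median level was 3.54 at DS and 3.47 at 6H. NAC3 (AT3G29035) rose by 3.20 ± 0.19 and NAC103 (AT5G64060) by 2.15 ± 0.20, after NTL8. RD26 (AT4G27410), a factor induced by drought and abscisic acid, read 8.17, 8.08 and 8.24 at DS and 4.31, 4.68 and 4.44 at 6H, a change of -3.68 ± 0.36. The related NAC032 (AT1G77450) and ATAF1 (AT1G01720) changed by -2.74 ± 0.21 and -2.62 ± 0.13.

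Of 45 bZIP factors 3 rose and 7 fell (14 on median-centred arrays). bZIP44 (AT1G75390), known from work on mannanase genes in germinating seeds, read 3.12, 3.43 and 3.15 at DS and 8.58, 8.45 and 8.60 at 6H, a rise of 5.31 ± 0.11 from under the floor (adjusted p = 2.4e-17). The other rises were smaller, at 1.41 ± 0.18 for bZIP52 (AT1G06850) and 1.3 ± 0.13 for TGA9 (AT1G08320), which did not pass on median-centred arrays (0.94). The G-box-binding factor genes GBF2 (AT4G01120) and GBF3 (AT2G46270) changed by -2.14 ± 0.15 and -2.12 ± 0.18, and EEL (AT2G41070), a close relative of ABI5, by -2.06 ± 0.17. The groups of each of these 6 genes lay apart.

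Cold-response genes were listed because the protocol includes stratification. Of 23 genes 1 rose and 5 fell (median -0.40, 0.16 below all loci), with 2 rises without DS replicate 2. STZ (AT1G27730), a zinc finger repressor of stress responses, read 9.23, 9.10 and 9.32 at DS and 4.34, 4.67 and 5.03 at 6H, a change of -4.54 ± 0.20, and averaged 7.90 at TR. LTI65 (AT5G52300) and LTI78 (AT5G52310), which respond to drought, cold and abscisic acid, changed by -3.79 ± 0.56 and -3.71 ± 0.26. COR47 (AT1G20440), a dehydrin, was the exception with 4.35, 5.59 and 4.66 at DS and 7.35, 6.81 and 6.24 at 6H, a rise of 1.93 ± 0.26.

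Marker genes describe the tissue sampled. Of 11 seed identity genes (storage proteins, oleosin, LEA proteins and ABI3) none rose and 4 fell (CRU2, SESA4, EM1 and GEA6, from -1.02 to -1.72), and their median level went from 11.58 ± 0.12 (SD, n = 3) at DS to 10.57 ± 0.18 at 6H and 6.47 at TR, so the defining seed transcripts were still high on all 6 arrays. None of 9 endosperm markers passed, with changes from -0.68 to 0.80, and 4 of them were under the floor at both stages. Their median level was 3.37 at DS and 3.05 at 6H, both under the floor, so the list says little about this tissue. EPR1, an extensin-like gene of the endosperm, was far above that median, with means of 11.86 and 11.24. One of 9 seed coat markers fell and none rose, with a median level of 3.75 at DS and 3.62 at 6H. None of 6 seedling markers passed, and their median level was 4.17 and 4.22 against 8.49 at the last stage.

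Probe sets are named by transcript model, and 3382 loci had exactly 2 that differed. The change of the 2 differed at an adjusted p under 0.05 and by at least 1 for 30 of them (0.887%). In 21 of the 30 only 1 of the 2 probe sets met both thresholds for its own change, in 6 both did and went the same way and in 2 neither did. The remaining locus, AT2G15910, moved in opposite directions. Its first model read 5.99, 5.23 and 6.06 at DS and 4.35, 4.55 and 4.53 at 6H (-1.28 ± 0.16), and its second 7.91, 7.95 and 7.96 at DS and 9.24, 8.97 and 9.39 at 6H (1.26 ± 0.13). Averaged over both, this locus had a change near 0 on the 6 arrays (-0.01 ± 0.12), and its groups overlapped.

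The other loci with the largest such differences included COL3 (AT2G24790), a CONSTANS-like factor of light responses. Its first model rose by 2.92 ± 0.14 and its second by 1.03 ± 0.17, a difference of 1.89 ± 0.19 (adjusted p = 5.7e-06). For the noncoding locus AT3G48115 the first model had a change of -0.00 ± 0.19 and the second changed by -1.98 ± 0.20. In AT2G19340, AT3G01360 and AT1G62880 the first change minus the second was -1.88, -1.68 and 1.63, in each with changes of opposite sign of which no more than 1 passed. Both changes of AT3G01360, -0.87 and 0.81, had an adjusted p under 0.05 but were smaller than 1. The exons that the probes cover are not described in these sources, so a change of isoform and a difference between probes cannot be told apart.

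Share and direction also varied with the kind and the length of a gene. Of 222 long noncoding RNA loci 31 rose and 35 fell (15.8%), against 10.8% falls among 26441 protein-coding loci. Among protein-coding loci with both means above the floor, split into 5 classes of gene span, 19% of the class with the shortest span (87 to 1584 bases) fell, and the share went down to 14.2%, 12.8%, 11.7% and 9.44% over the longer classes. The share that rose was 21.6% in the shortest class, 23.3%, 22.2% and 21.6% in the next ones and 17.6% in the longest. That filter depends on the change itself, and over all protein-coding loci, split into 5 classes by their own spans, the falls were 11.8%, 11.5%, 11.4%, 10.8% and 8.66% from the shortest to the longest class, and the rises 7.73%, 14.8%, 16.6%, 18.4% and 16.3%. Gene span here is that of the reference table, introns included, and neither RNA integrity nor the distance of probes from the end of the transcript is given, so their part in this order was not tested.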

How the data were processed

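The series measured RNA of seeds and seedlings on 21 arrays, and the comparison used 3 dry seed and 3 6 h arrays within a fit of all stages. The deposited table holds log2 values made by the authors with RMA, per the submitters' processing notes. RMA includes quantile normalization between arrays, and gives 1 value for each probe set. The array platform, the annotation release of its probe sets and the software version are not given in the sources used here. In all, 35986 probe sets had values from 1.49 to 12.85. Probe sets with values identical between loci (215) were dropped, at the cost of 192 loci, and the probe sets of each of 5818 loci were averaged, leaving 27789 loci. Of these, 27175 were in the RefSeq gene table for Arabidopsis and 10537 had a symbol there. No genome, promoter or protein table was used, so no sequences or coordinates are given and the planned search for promoter motifs was not run.

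Limma 3.58.1 (R 4.3.3) fitted 1 mean per stage over all 21 arrays (14 residual degrees of freedom) with moderated variances and 2-sided tests of 6H minus DS, adjusted over all loci by Benjamini-Hochberg. Unequal change of 2 probe sets of a locus was tested by the same fit to their difference. The fit was also run on simulated data with independent noise and few changed loci. Far more loci changed in these data, so that run gives no support to the calls here. The number of arrays limits the precision, and p-values measure the spread between the pools of seeds, estimated over all stages.

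The members and lists were chosen with earlier results of these data known. Of 747 members of 25 lists (21 by locus, 4 by symbol or synonym, so that unnamed loci are missing from these), 720 were measured, 22 were left out because the gene table names their locus otherwise and 5 had no probe set of their own. The lists of plastid ribosomal proteins, NAC factors, bZIP factors, translation initiation factors and glutathione S-transferases were added after the values were seen, and those by name were drawn from symbols, since the gene table holds no product names. Genes named in the text are the 15 largest rises and 15 largest falls with groups apart and both means at or above the floor. They further include the 8 highest means per stage, up to 3 rises, 3 falls and 2 changes that did not pass per list, the 6 most unequal probe set pairs, and GA3OX1, GA3OX2, DOG1, ABI5 and CYP707A2. PARP1 was named after its values were seen. One gene that this rule names is not reported here.

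The alternatives were a further quantile normalization, median-centred arrays, loci above the floor on at least 3 arrays only, array weights, a trended robust prior, the brightest probe set of a locus, the 6 arrays alone, limma's treat, other thresholds, a replicate block and omission of each array, and, added after the data were seen, the 6 arrays without DS replicate 2.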

Additional observations from a re-analysis of the deposited data

How the results depend on the processing

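The count of genes that rose from DS to 6H lay between 3842 and 4254 when each array was left out in turn, and that of genes that fell from DS to 6H between 2863 and 3221, against 4070 and 2965 with all arrays. Median-centred arrays gave 2457 and 6159, a threshold of 2 on the log2 scale 1030 and 822, the adjusted p alone 8220 and 11120, and limma's treat against a change of 1 gave 2371 and 1627. The replicate numbers are not stated to pair the arrays. Deviations of same-numbered DS and 6H arrays correlated at 0.118, -0.097 and 0.068 across loci, which cannot decide whether those arrays were paired. With the replicate number as a block, 4070 rose and 2965 fell, and the replicate block moved no count or call of a named gene. The loci with unequal probe sets numbered 23 to 31 over the alternatives.

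Median-centring lowers every change alike, and on median-centred arrays the list medians were 0.51 for the proteasome, 0.65 for mitochondrial import, -0.53 for alternative respiration, 0.11 for DNA repair, 0.23 for histones, -0.76 for cold response, -0.39 for reactive oxygen enzymes, 0.24 for brassinosteroid, -0.72 for cytokinin, -1.05 for jasmonate and -1.05 for autophagy. They were -0.45 for sucrose and hexose use, -0.89 for nitrogen, -0.15 for mRNA decay (0.21 as deposited), -1.15 for heat shock factors, 0.63 for the cytoskeleton, -0.70 for aquaporins, 0.19 for aminoacyl-tRNA synthetases, 0.74 and 0.55 for cytosolic and plastid ribosomal proteins, -0.84 for pectin, -0.63 for NAC and -0.74 for bZIP factors, 0.27 for initiation factors and -0.72 for glutathione S-transferases. Relative to all loci the mRNA decay median was 0.44 on both scales, as the subtraction requires, and 0.22 after the further quantile normalization. After the further quantile normalization the medians were 0.20 for alternative respiration, 0.13 for DNA repair, 0.47 for histones, -0.19 for cold response, 0.16 for reactive oxygen enzymes, 0.19 for brassinosteroid, -0.08 for cytokinin, -0.50 for jasmonate, -0.76 for autophagy, -0.14 for aquaporins, -0.21 for pectin, -0.13 for glutathione S-transferases, 0.18 for sucrose and hexose use and 0.07 for NAC factors. Of these, alternative respiration, reactive oxygen enzymes, sucrose and hexose use and NAC factors had been at -0.16, -0.02, -0.08 and -0.27 and changed sign. Relative to the median of all loci these 4 went from 0.07, 0.21, 0.15 and -0.04 to 0.24, 0.19, 0.21 and 0.10. On that measure only NAC factors among them changed sign. Without dim genes they were 0.30 for alternative respiration, -0.98 for heat shock factors and 0.97 for plastid ribosomal proteins, and with array weights 0.51 for histones and -0.91 for heat shock factors. When each array was left out, the median lay between 0.82 and 0.92 for the proteasome, -0.53 and -0.21 for cold response (the latter without DS replicate 2), and -0.70 and -0.55 for jasmonate.

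Among the 211 named genes, median-centring ended 9 calls and added 22. ATMG00030 and ATMG00020, near 0 as deposited, reversed to 0.05 and 0.10 after the further quantile normalization. AT2G15910 reversed to 1.26 with its brightest probe set and lay between -0.14 and 0.07 when each array was left out (-0.01 with all). AT3G01360 reversed to 0.81 with its brightest probe set and 0.10 with array weights and lay between -0.10 and 0.04 when each array was left out, and AT1G62880 reversed to 0.38 with its brightest probe set. The cause of these shifts was not tested, beyond the subtraction that median-centring makes. The small number of arrays and signals near the floor limit the precision of small changes and of low levels.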
